A study of Homo sapiens with 4 samples.

Results

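ADCY6 and WEE1 are 2 human genes whose mRNAs carried peaks of MARF1 crosslinking in HEK293 cells. They were selected on the presence of called peaks: every interval of the authors' final list with the gene symbol ADCY6 or WEE1, together with every peak of either replicate that overlapped the body of either gene. By symbol this gave 7 of the 282 intervals shared by both replicates, 5 in ADCY6 and 2 in WEE1. By gene body it gave 10 shared intervals, 8 of the 719 peaks of replicate 1 and 6 of the 534 peaks of replicate 2. Because a called peak chose the members, their fold enrichments, q-values and read numbers are given as descriptions and were not tested.

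ADCY6 encodes an adenylyl cyclase, an enzyme of the plasma membrane that makes cyclic AMP. In oocytes, cyclic AMP keeps protein kinase A active, which holds the cell in the prophase arrest of meiosis, and the fall of cyclic AMP allows meiosis to resume. WEE1 encodes a kinase that phosphorylates CDK1 and thereby restrains entry into mitosis, while the related WEE2 serves this role in oocytes. MARF1 is an RNA-binding endoribonuclease with LOTUS and RRM domains and a NYN nuclease domain, and it is needed for meiosis in female mice. The link to meiotic arrest thus runs through cyclic AMP for ADCY6 and through the related WEE2 for WEE1, and it concerns oocytes. A role of ADCY6 or WEE1 themselves in oocytes was not measured. The cells here were HEK293, a line derived from human embryonic kidney and named HEK293-Trex in the sample titles. The peak lists hold no expression values, so the cell line label could not be checked against marker genes.

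The data came from iCLIP, in which RNA is crosslinked to protein by ultraviolet light, recovered with an antibody and sequenced. Each of 2 HEK293 libraries, from cells with a doxycycline-inducible FLAG-tagged MARF1 without its NYN domain (F-MARF1ΔNYN), was compared by the peak caller macs2 with the control library of the same number. F-MARF1ΔNYN was induced with 100 ng/mL doxycycline for 12 h, and crosslinking used light of 254 nm at 400 mJ/cm2. The 2 control libraries came from HEK293 cells without a FLAG-tagged MARF1, after the same FLAG immunoprecipitation. Whether the control cells received doxycycline is not given in the sources used here. The protein was an induced, tagged transgene that lacks the nuclease domain, so the peaks describe where this protein was crosslinked and not the decay of either mRNA.

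A peak's fold enrichment is the read pileup at its summit over the local background from the control, scaled for depth and each with 1 added. Per the study's methods, peaks were called with an extension size of 100, and the narrowest peak of each replicate was 100 bp wide. Peak widths, coverage, gaps and summits therefore describe pileups of extended reads and not single crosslinked bases. The fold enrichment and the Poisson p-value of a peak together fix a whole number of reads at the summit, and this number could be solved for all 719 and 534 peaks. Positions are on GRCh37 (hg19), and distances are in nt after the stop codon of the transcript with the longest coding sequence. ADCY6 (ENSG00000174233) lies on the minus strand of chromosome 12 from 49159977 to 49182872, with a 3′UTR of 2397 nt from 49159977 to 49162373. WEE1 (ENSG00000166483) lies on the plus strand of chromosome 11 from 9595217 to 9615004, with a 3′UTR of 1383 nt from 9610150 to 9611532. Both 3′UTRs lie in a single exon.

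The following stretches of 30 nt surround summits in the 3′UTRs. The ADCY6 stretches are the 3 places where the summits of the replicates lay closest together, chosen after their positions were seen. Each is written 5′ to 3′ on the transcript strand of the reference genome, with the summit base in capitals. In ADCY6, the summits of replicates 1 and 2 near nt 1141 lay 1 bp apart and share a line. The next pair, at nt 483 in replicate 1 and nt 508 in replicate 2, lay 25 bp apart. The pair at nt 2244 and nt 2218 near the end of the 3′UTR lay 26 bp apart. The pair at nt 2244 and nt 2218 faces an exon of an antisense RNA described below, whose symbol their shared interval carries. The peak lists give no strand, so these 2 stretches may belong to either RNA. The 3 WEE1 summits are all shown, since none of them fell within 100 bp of a summit of the other replicate.
ADCY6 nt 1141 and 1142, replicates 1 and 2, chr12:49161218-49161247: caggttgcctctctCCtgtgggcctctgtc
ADCY6 nt 483, replicate 1, chr12:49161876-49161905: ctttgcaatacctgCatccccagcactggt
ADCY6 nt 508, replicate 2, chr12:49161851-49161880: ctggtcctgggcacTtccccaccccagcca
ADCY6 nt 2244, replicate 1, chr12:49160115-49160144: ccattgtccctttcCtcacccagttggtag
ADCY6 nt 2218, replicate 2, chr12:49160141-49160170: gccagccatgccctTcccctgggctaccat
WEE1 nt 222, replicate 1, chr11:9610357-9610386: gatgtgtcactgttGgatgttacaccagcc
WEE1 nt 542, replicate 2, chr11:9610677-9610706: tattgccttgtgaaTttgctgctattttag
WEE1 nt 655, replicate 1, chr11:9610790-9610819: tagctgcttttgatGaaaagcagctatttg

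All 6 ADCY6 peaks of replicate 1 and all 5 of replicate 2 lay on the 3′UTR, and no peak was called elsewhere in the gene, which has 22 exons. Together they formed a nearly continuous tract. Peaks of at least 1 replicate covered 2252 of the 2397 nt (94.0%), and the bases outside every peak were a gap of 52 nt from nt 1028 and a gap of 93 nt from nt 1235. Only the peak nearest the stop codon in replicate 2 reached into the coding sequence, with 56 of its 158 bp before the 3′UTR, the stop codon included. At the other end, the last peaks of both replicates stopped at the same base, 2 bp past the annotated end of the gene.

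**Figure D1:**
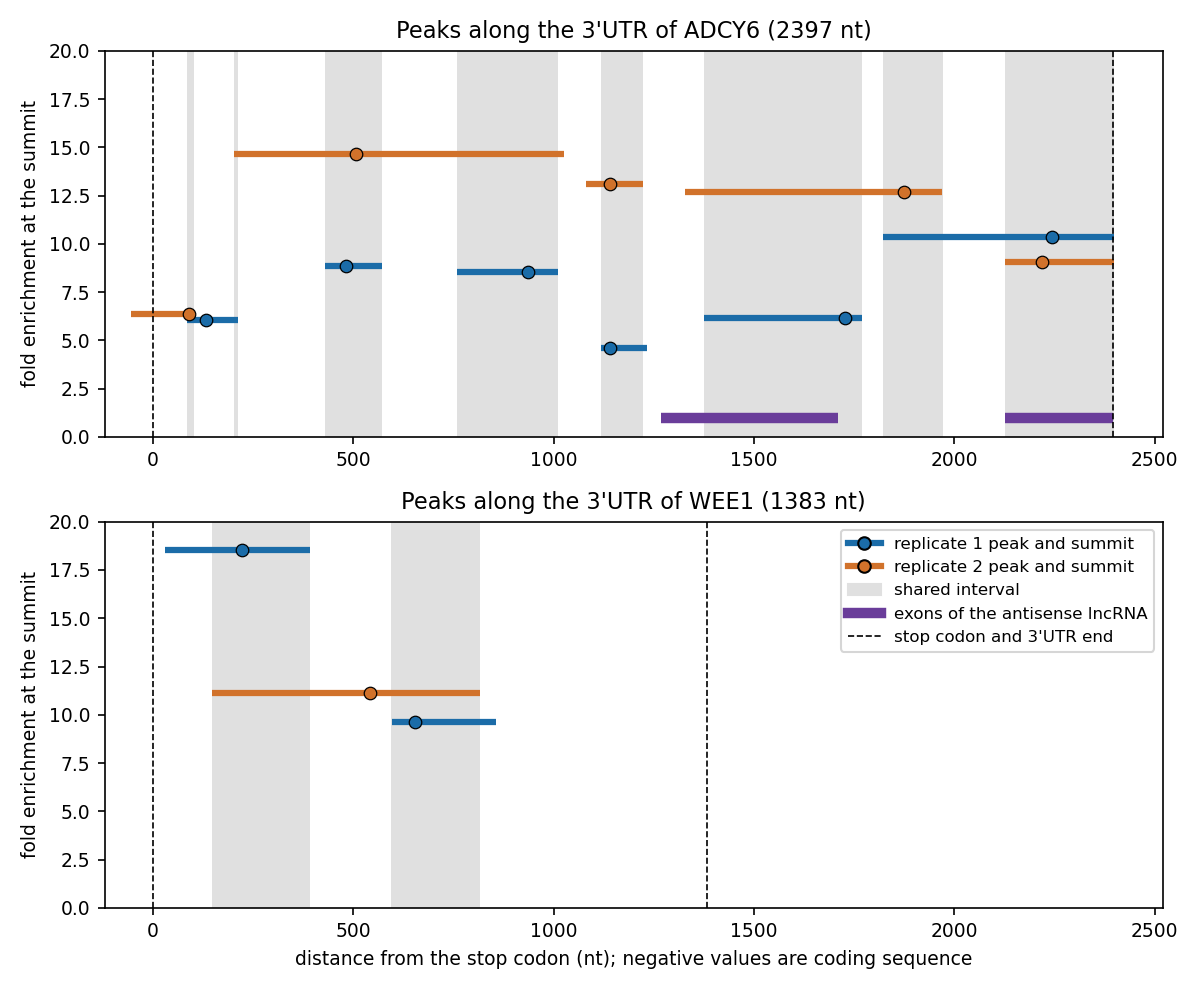
Peaks of F-MARF1ΔNYN along the 3′UTRs of ADCY6 (top) and WEE1 (bottom). The horizontal axis is the distance from the stop codon in nt, the vertical axis the fold enrichment at the summit; bars are peaks, circles summits, grey bands shared intervals and the purple bars the exons of the antisense RNA. ADCY6 is covered almost from end to end, while WEE1 has no peak in the last 526 nt.

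In replicate 1, the ADCY6 peak with the highest fold enrichment was the last one, at nt 1822 to 2399, with 10.3-fold enrichment and 11 reads at its summit (95% Poisson interval 5.49 to 19.7). The peaks at nt 430 to 572 and nt 759 to 1011 followed, at 8.87-fold with 15 reads and 8.56-fold with 11 reads. The remaining 3 were lower, at 6.14-fold (nt 1375 to 1770, 15 reads), 6.03-fold (nt 86 to 212, 6 reads) and 4.60-fold (nt 1118 to 1234, 11 reads). The intervals of all 6 read numbers overlapped, so at this depth the peaks of replicate 1 could not be ordered by reads. These intervals cover counting error only.

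In replicate 2, the highest ADCY6 fold enrichment was 14.7, at a peak of 825 bp from nt 203 to 1027 with 19 reads at its summit (interval 11.4 to 29.7). The peak at nt 1080 to 1222 had 13.1-fold enrichment and 21 reads (13.0 to 32.1), and the peak at nt 1328 to 1970 had 12.7-fold enrichment and 19 reads. At the ends of the 3′UTR the values were lower, with 9.06-fold and 18 reads at nt 2126 to 2399, and 6.38-fold and 7 reads (2.81 to 14.4) next to the stop codon. The order by fold enrichment thus differed between the replicates: the last peak was highest in replicate 1 and the fourth of 5 in replicate 2. The peak nearest the stop codon had the fewest reads in both.

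WEE1 had fewer peaks, and again all of them lay in the 3′UTR. In replicate 1, the peak at nt 31 to 392 had 18.5-fold enrichment and 22 reads at its summit (13.8 to 33.3), and its q-value was 3.42e-30. By fold enrichment it ranked 3 of the 719 peaks of that replicate, and by reads 30. The other peak of replicate 1, at nt 596 to 857, had 9.60-fold enrichment and 14 reads (7.65 to 23.5). In replicate 2 a single peak of 670 bp spanned nt 148 to 817, with 11.1-fold enrichment, 20 reads (12.2 to 30.9) and rank 55 of 534 by fold enrichment. The read intervals of the 3 WEE1 peaks overlapped each other and those of the ADCY6 peaks, except that the 22-read WEE1 peak lay above the interval of the 6-read ADCY6 peak of replicate 1.

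**Figure D2:**
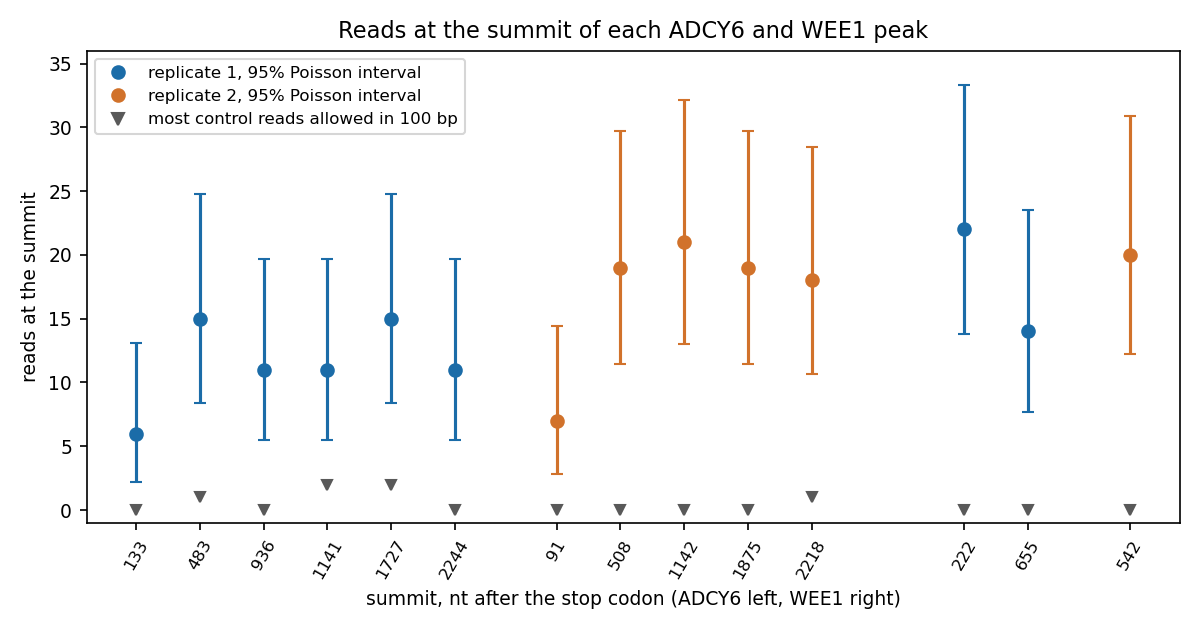
Reads at the summit (vertical axis) of each ADCY6 and WEE1 peak, placed by replicate and by the distance of its summit from the stop codon in nt. Bars are 95% exact Poisson intervals, and triangles give the largest number of control reads that the background allows in 100 bp. The limit for the control is 0 to 2 reads, and F-MARF1ΔNYN has 6 to 22 reads at the summits.

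The control signal at these peaks is known only through the local background. At 4 of the 6 ADCY6 peaks of replicate 1 the background allowed at most 1 control read in 100 bp, and at those at nt 1118 and nt 1375 at most 2. In replicate 2 the last ADCY6 peak allowed 1 control read and the other 4 allowed 0. All 3 WEE1 peaks allowed 0 control reads in 100 bp and at most 3, 7 and 8 in 1 kb. The ADCY6 peaks with the highest background in replicate 1, at most 20 control reads in 1 kb, were those at 4.60-fold and 6.14-fold. Over all peaks, the median of this 1-kb limit was 3 control reads in replicate 1 and 4 in replicate 2.

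The 4.60-fold peak of ADCY6 was the weakest of all members, with a q-value of 0.00383 and rank 671 of 719 by fold enrichment. Its summit was nevertheless the one that replicate 2 placed most closely, 1 bp away, at 13.1-fold enrichment with a q-value of 7.14e-18 and rank 27 of 534. The reads were 11 in replicate 1 and 21 in replicate 2, with overlapping intervals. The background was 1.61 in replicate 1 and 0.60 in replicate 2. The part of the background in the difference between the fold enrichments was not tested. The largest q-values in the lists were 0.0489 and 0.0433.

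How well the replicates agreed on position varied along ADCY6. Of its 8 shared intervals, 3 held the summits of both replicates, 4 held a single summit and 1 held none. The interval without a summit was 10 bp long, at nt 203 to 212, where the end of the first peak of replicate 1 met the start of the 825-bp peak of replicate 2. That wide peak also underlay the intervals at nt 430 to 572 and nt 759 to 1011, so 3 of the 5 intervals with the symbol ADCY6 share 1 peak of replicate 2 and are not separate observations there. Over all 282 intervals, 160 held both summits, 93 a single one and 29 none.

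Neither WEE1 interval held both summits. The interval at nt 148 to 392 (245 bp) and the interval at nt 596 to 817 (222 bp) each contained a summit of replicate 1. The summit of replicate 2, at nt 542, lay in the 203 nt between them, 320 bp from one summit of replicate 1 and 113 bp from the other. The median distance between the summits behind a shared interval was 49 bp over the whole list, with a range of 0 to 1744 bp. Replicate 2 thus had its deepest WEE1 pileup where replicate 1 had no called peak. With a reciprocal overlap of 50% in place of 1 bp, 0 of the 2 WEE1 intervals and 1 of the 5 intervals with the symbol ADCY6 would count as shared.

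Several intervals share a peak, so reads of the replicates were set side by side only at the 3 ADCY6 intervals that held both summits. These had 15 and 19 reads in replicates 1 and 2 at nt 430 to 572, 11 and 21 at nt 1118 to 1222, and 11 and 18 at nt 2126 to 2399. Replicate 2 had more reads in each pair, 1.27, 1.91 and 1.64 times as many, while the 95% counting intervals of each pair overlapped and the difference was not tested. Fold enrichment was higher in replicate 2 at the first of these pairs, 8.87 against 14.7, and at the next, 4.60 against 13.1, but not at the last, 10.3 against 9.06. Over all 160 shared intervals with both summits, the reads of replicate 2 were a median of 1.17 times those of replicate 1 (range 0.615 to 2.75). The F-MARF1ΔNYN library was 0.803 times as deep as its control in replicate 1 and 1.05 times in replicate 2. The part of depth in the ADCY6 values was not tested.

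The last 3 of the 8 shared intervals in the ADCY6 3′UTR carry another gene symbol in the authors' list, RP11-579D7.2. This is an antisense long non-coding RNA (ENSG00000257653) on the plus strand of chromosome 12 from 49159977 to 49161106, so its 1130 bp lie wholly within the ADCY6 3′UTR and span 47.1% of it. The 3 intervals were 396 bp at nt 1375 to 1770, 149 bp at nt 1822 to 1970 and 274 bp at nt 2126 to 2399. Their fold enrichments were 6.14 and 12.7, 10.3 and 12.7, and 10.3 and 9.06 in replicates 1 and 2. The first 2 of these intervals share 1 peak of replicate 2, with its summit at nt 1875. The last 2 share 1 peak of replicate 1, with its summit at nt 2244. The peak lists give no strand, so reads from ADCY6 and from the antisense RNA cannot be told apart. The 2 annotated exons of the antisense RNA face nt 1268 to 1709 and nt 2127 to 2397. The interval at nt 1822 to 1970 lies between them, and so overlaps the intron of this RNA but none of its exons. The replicate 1 value of 10.3 for this interval was measured outside it, at nt 2244, which faces an exon of the antisense RNA. The 5 intervals with the symbol ADCY6 all lie nearer the stop codon than the antisense gene and do not overlap it.

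The peaks took up a large share of both 3′UTRs. In ADCY6 they covered 67.3% in replicate 1 and 82.8% in replicate 2, and the shared intervals covered 1345 nt (56.1%). Counting only the intervals with the symbol ADCY6, a choice made after seeing the data, the shared share was 22.0%. In WEE1 the peaks covered 45.1% and 48.4%, and the shared intervals 467 nt (33.8%). Among the 97 genes with a shared interval in this 3′UTR, the median shared coverage was 6.02% (range 0.484 to 85.0%), and ADCY6 ranked 5 and WEE1 9. With only the intervals of its own symbol, while the other genes kept all their intervals, ADCY6 would rank 21. The 4 genes ahead of ADCY6 were KLHL15, NOTCH2, TXLNA and TFRC, chosen for mention after their values were seen. Both 3′UTRs were shorter than the median of these genes, 3513 nt. By the number of shared bases in place of the share, ADCY6 ranked 8 and WEE1 22 of the 97.

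**Figure D3:**
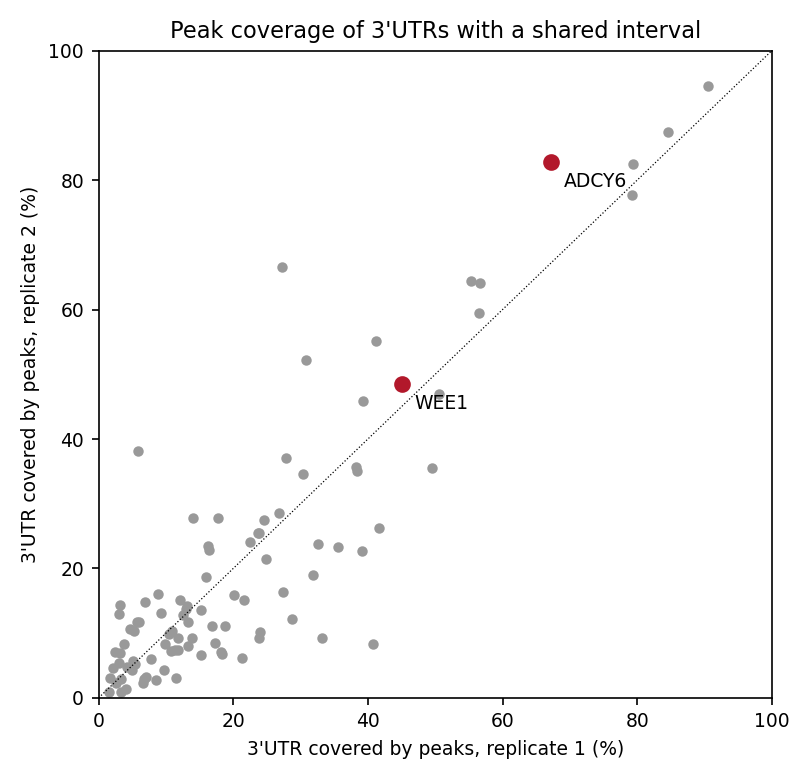
Share of the 3′UTR covered by peaks in replicate 1 (horizontal axis, %) and replicate 2 (vertical axis, %), each point 1 of the 97 genes with a shared interval in the 3′UTR and the dotted line equal coverage. ADCY6, at 67.3% and 82.8%, and WEE1, at 45.1% and 48.4%, lie above the medians of 15.2% and 12.8%.

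In WEE1 the peaks of both replicates lay in the part nearer the stop codon. Peaks of at least 1 replicate covered nt 31 to 857 (59.8% of the 3′UTR), and the last 526 nt held none. A shorter annotated WEE1 transcript ends at nt 1020, within the stretch without peaks, and the other annotated ends with this stop codon lie at nt 1382 and 1383. In ADCY6 the shortest annotated end with this stop codon lies at nt 2262, inside the last shared interval.

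Some ADCY6 peaks and the WEE1 peak of replicate 2 were among the widest. The 825-bp peak of ADCY6 ranked 12 of 534 by width in replicate 2 and the 670-bp peak of WEE1 ranked 17, where the median was 137 bp. In replicate 1 the widest ADCY6 peak, at 578 bp, ranked 16 of 719, against a median of 133 bp. The shortest ADCY6 peak there, at 117 bp, ranked 440. The WEE1 peaks of replicate 1, at 362 and 262 bp, ranked 53 and 101.

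The final list holds 117 gene symbols, and each was ranked by the fold enrichment of its best interval in the lower replicate. WEE1 ranked 11 with 11.1 and ADCY6 24 with 8.87, against a median of 7.21 (range 3.97 to 19.4). The antisense symbol ranked 14 with 10.3. By number of intervals ADCY6 ranked 10 and WEE1 31, where the median symbol had 1 interval and the largest number was 13. These ranks rest strongly on the replicate: without replicate 2, ADCY6 ranked 42 and WEE1 2, and without replicate 1 they ranked 10 and 34. WEE1 was thus ahead in replicate 1 and ADCY6 in replicate 2.

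The genes most like each of the 2 were found by the distance between the log2 fold enrichments of the best interval over 2 values, replicate 1 and replicate 2. For ADCY6, with 8.87 and 14.7, these were CBX6 (8.44 and 14.2, distance 0.084), TAOK1 (8.52 and 13.3, distance 0.15) and KLHL15 (7.62 and 14.9, distance 0.22). For WEE1, with 18.5 and 11.1, they were LNPEP (16.4 and 11.6, distance 0.19), PGAM4 (15.1 and 11.9, distance 0.31) and TDG (14.4 and 8.86, distance 0.49). Since these genes were chosen by the same values, their likeness is a description.

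Outside the gene bodies the nearest peaks were distant. For ADCY6 the nearest of replicate 1 lay 73829 bp away in CCNT1 (6.10-fold, 10 reads), and the nearest of replicate 2 lay 875322 bp away in VDR (7.24-fold, 7 reads). For WEE1 both replicates had their nearest outside peak in FAR1, 4136551 and 4136296 bp away, at 5.55-fold and 4.77-fold. These distances were taken from the gene body, and the smallest was 73829 bp.

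The 3′UTRs differed in base composition. ADCY6 was G+C rich, with 53.7% over the whole 3′UTR, 54.4% in its shared intervals and 49.7% in the 145 nt outside every peak. WEE1 was rich in T, at 39.9%, and had 33.9% G+C over the whole, 37% in its shared intervals and 30.2% in the 556 nt outside every peak. Windows of 100 nt centred on the summits of replicate 1 had a median G+C of 57.5% in ADCY6 (6 windows, 44 to 61%) and 38.5% in WEE1 (2 windows, 30 and 47%). The median over all 526 summits of replicate 1 in 3′UTRs was 41% (range 23 to 73%). All 6 ADCY6 windows lay above this median, while 1 WEE1 window lay below it and the other above it, within the ADCY6 range.

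Predicted folding differed as well. The minimum free energy was -31.0 kcal/mol in the median 100-nt window of ADCY6 (230 windows in steps of 10 nt). It was -31.9 in the 74 ADCY6 windows wholly inside shared intervals. Both sets had the same range, -58.5 to -11.14 kcal/mol. In WEE1 the median was -16.4 kcal/mol over 129 windows. It was -20.5 in the 27 windows wholly inside shared intervals (-26.9 to -15.6) and -14.7 in the 43 wholly outside every peak (-19.4 to -6.2). The remaining WEE1 windows belong to neither group. Among them were those with the lowest energy, -27.3 kcal/mol at nt 461 to 560 and nt 471 to 570, inside a peak but outside the shared intervals. The windows of WEE1 inside shared intervals had a median G+C of 40% and those outside 29%, so folding and composition cannot be told apart here. Neighbouring windows overlap and are not independent. Around the summits of replicate 1, the median energy over all 526 windows was -20.3 kcal/mol (-54.3 to -4.8). It was -30.45 kcal/mol over the 6 windows of ADCY6 (-39.7 to -21.4) and -22.55 over the 2 of WEE1 (-24.6 and -20.5).

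**Figure D4:**
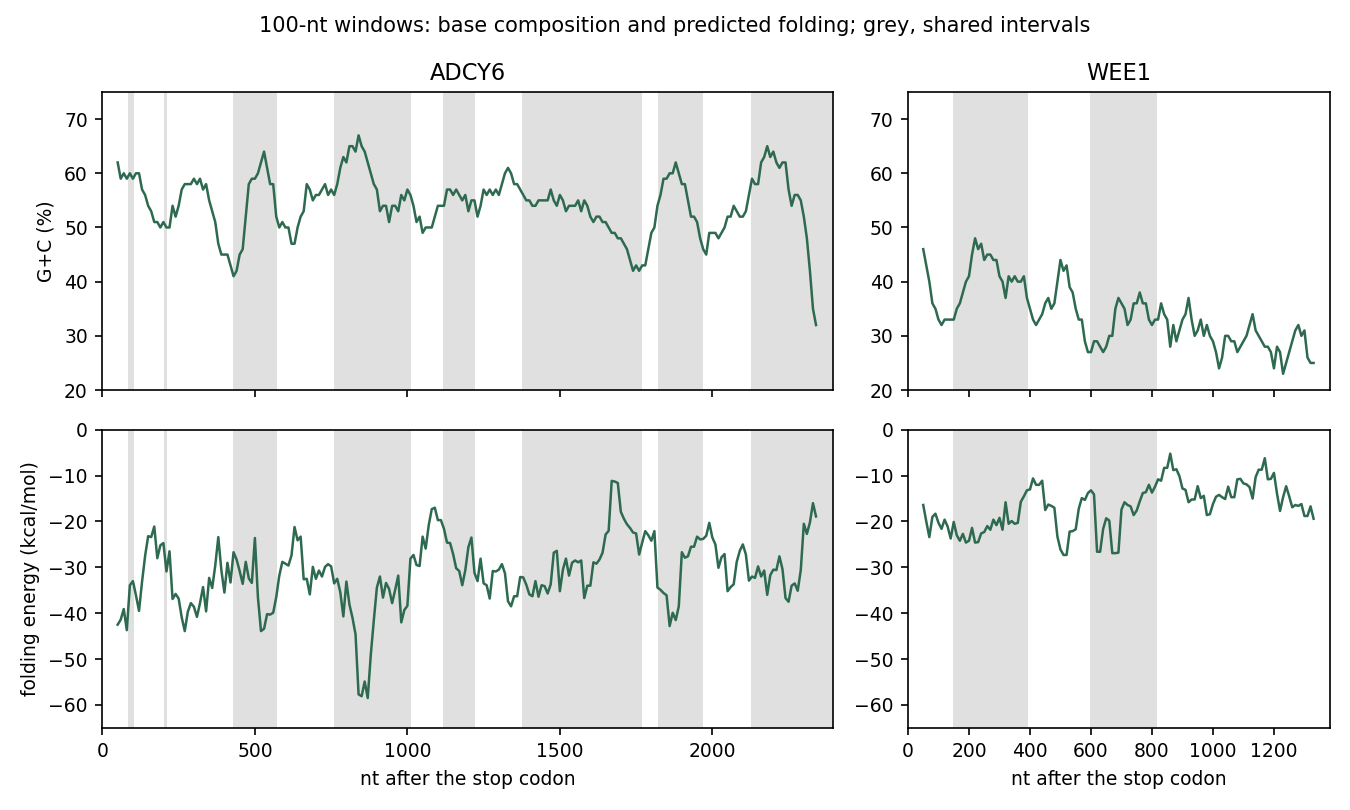
G+C content in percent (top) and predicted folding energy in kcal/mol (bottom) of 100-nt windows along the 3′UTRs of ADCY6 and WEE1, plotted at the window's middle in nt after the stop codon, with shared intervals in grey. ADCY6 stays between 32 and 67% G+C, and WEE1 between 23 and 48%.

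Of 3 motifs searched on the transcript strand, AATAAA, the common polyadenylation signal, occurred at nt 1164 and nt 2374 of the ADCY6 3′UTR and at nt 293 of WEE1. All 3 copies lay in shared intervals, which covered 56.1% of the ADCY6 3′UTR and 33.8% of that of WEE1. With so few copies, this count is no result about the motif. The ADCY6 copy at nt 1164 began 23 nt after the replicate 1 summit at nt 1141, and the copy at nt 2374 ended 18 nt before the annotated end of the 3′UTR. Among 100-nt windows at the summits of replicate 1, 1 of 6 in ADCY6, 0 of 2 in WEE1 and 34 of all 526 (6.46%) held AATAAA. The stretches are shown with the motif in capitals, since they place peaks against possible 3′ ends.
ADCY6 nt 1164, chr12:49161193-49161222: ctgtcttctgggAATAAAgcagggtttcct
ADCY6 nt 2374, chr12:49159983-49160012: tatttaaatatcAATAAAatcaaactcttt
WEE1 nt 293, chr11:9610430-9610459: ctgttgcattgtAATAAAaggtgtctttcc

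TGTANATA, the core of the Pumilio protein recognition element, was absent from the ADCY6 3′UTR and occurred 2 times in WEE1, at nt 899 and nt 925. Both copies lay outside every peak, just past the end of the coverage at nt 857. AAATT occurred at nt 15 of ADCY6, and at nt 1041 and nt 1347 of WEE1, none of them in a shared interval. The ADCY6 copy lay in the replicate 2 peak next to the stop codon, and the 2 WEE1 copies lay outside every peak. Over all 526 summit windows, 16 (3.04%) held TGTANATA and 85 (16.2%) held AAATT, against 0 in the 8 windows of these genes. A match of letters is no evidence of a bound factor. The pair of TGTANATA copies in WEE1 is shown with the motif in capitals.
WEE1 nt 899, chr11:9611037-9611066: ttcaatatttgTGTATATAaaccgatcttc
WEE1 nt 925, chr11:9611063-9611092: cttcgtgatacTGTACATAgctgtttgaaa

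Near-identical copies elsewhere in the genome could share reads. The 11 ADCY6 peaks and its 3′UTR had 0 matches outside the gene. The WEE1 peaks matched places on chromosomes 4 and 17, the closest being the pseudogene WEE1P2 on chromosome 17, with 84.9% identity over 365 aligned positions to the first peak of replicate 1. None of the 19 matches of WEE1 peaks and 3′UTR overlapped a called peak in replicate 1 or in replicate 2.

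Finally, other genes of the same pathways were counted from lists that leave out ADCY6 and WEE1. Of all 20176 protein-coding genes, 1.75% had an exonic peak in replicate 1, 1.16% in replicate 2 and 0.545% a shared interval. Of 25 genes around cyclic AMP and protein kinase A, among them the other adenylyl cyclases, the receptor GPR3 and the phosphodiesterase PDE3A, 0 had a peak in either replicate. Of 18 genes around the CDK1 switch, among them WEE2, PKMYT1 and the CDC25 phosphatases, 0 had a peak in replicate 1, 1 in replicate 2 and 0 a shared interval. The gene with a peak was ARPP19, whose product inhibits the phosphatase PP2A in mitosis when phosphorylated. Its peak of 100 bp on chromosome 15, from 52843385 to 52843484, lay in the 3′UTR of another annotated transcript than the one with the longest coding sequence, at 5.53-fold enrichment with 10 reads (4.80 to 18.4). With such low background shares, a count of 0 or 1 in lists of this size is near the background and is no result about the lists. The peak lists do not give the level of these mRNAs in the cells, so absence of a peak cannot be told apart from absence of the mRNA.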

How the data were processed

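Members and gene lists were chosen with earlier results of these data known. Per the submitters' processing notes and the study's methods, reads were trimmed with Trimmomatic 0.32, aligned to hg19 with STAR 2.3.0e, cleared of secondary alignments with SAMtools 1.9 and of duplicates with Picard 2.10.7, and peaks were called with MACS2 2.1.1 for each replicate against its control, without pooling. The deposited lists give a score (10 times the -log10 q-value), the fold enrichment at the summit as a ratio, -log10 p-values and -log10 q-values. The authors also deposited the distance of each summit from the peak start, and a list of intersected intervals annotated with HOMER 4.10, which was reproduced in full with an overlap of 1 bp. From these values, reads at the summit and the background were solved (tolerance 0.001 on -log10 p) after a test on simulated data, with exact 95% Poisson intervals. Library totals follow only if the built-in human genome size of MACS2 was used, and would then be about 1470000 and 1640000 reads for F-MARF1ΔNYN and 1830000 and 1560000 for the controls. Gene models were GENCODE release 44 mapped to GRCh37. Python 3.11.15, numpy 2.4.6, scipy 1.17.1, samtools 1.23.1, blastn 2.17.0, ViennaRNA 2.7.2 and matplotlib 3.10.9 were used. Named genes were ADCY6 and WEE1, genes of the 2 pathway lists with a peak, and the 3 genes nearest each member by fold enrichment. Outside this rule, genes at the nearest other peaks, the 4 with higher coverage and WEE1P2 were named after their values were seen, and a few pathway genes without a peak as examples. No test was run, since the rule used the contrast itself. Alternatives varied overlap, threshold, annotation, ranking value and replicate.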

Additional observations from a re-analysis of the deposited data

How the results depend on the processing

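Of 47 alternatives, 9 of them chosen after seeing the data, 24 kept the value within the spread between replicates or a count within 1.5 times, and 23 moved it. No paired analysis was possible because no result comes from a test; each replicate was already called against the control of its number. A reciprocal overlap of 50% left 1 of 5 shared intervals with the symbol ADCY6, 2 of 8 in its gene body and 0 of 2 in WEE1. Counting by gene body gave 8 ADCY6 intervals and moved its rank from 24 to 14. Ranked by reads, WEE1 moved from 11 to 21. The union of peaks covered 94.0% of the ADCY6 3′UTR and 59.8% of that of WEE1, in place of 56.1% and 33.8%. Over all transcripts the WEE1 share was 30.2%. With only intervals of the symbol ADCY6, the ADCY6 share was 22.0%. This moved the ADCY6 rank by coverage from 5 to 21, while the other genes kept all their intervals. Without replicate 1 or replicate 2, the following ranges were found. By gene body, WEE1 had 1 to 2 peaks and ADCY6 5 to 6, and the highest fold enrichment was 11.1 to 18.5 in WEE1 and 10.3 to 14.7 in ADCY6. The 10.3 belongs to a peak with the antisense symbol, so annotation changed there too; by symbol, replicate 1 alone gave 8.87. By symbol, the rank was 10 to 42 for ADCY6 and 2 to 34 for WEE1. All peaks, whatever their symbol, covered 67.3 to 82.8% and 45.1 to 48.4% of the 3′UTRs. The pathway lists had 0 to 1 genes with a peak. The cause of the changes of rank was not tested. With 6 to 22 reads at a summit and 2 replicates, the counting intervals of most peaks overlapped, which is no test of a difference. Differences between peaks were not tested. Sites below the caller's threshold were not detectable, and neither the strand of reads nor mRNA levels are known.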
